A study of Arabidopsis thaliana with 14 samples.

Results

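Beta-amylases release maltose from the ends of starch chains, and in leaves this step carries most of the nightly breakdown of starch in plastids. The Arabidopsis family has members that act in plastids, members in plastids that lack catalytic activity, a member outside the plastid, and nuclear members that carry a DNA-binding domain. The beta-amylase outside the plastid, BAM5 (also RAM1), is known from phloem and from leaves fed with sugar.

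The family was taken by probe set, named for its locus, as BAM1 (AT3G23920_at), BAM2 (AT4G00490_at), BAM3 (AT4G17090_at), BAM4 (AT5G55700_at), BAM5 (AT4G15210_at), BAM6 (AT2G32290_at), BAM7 (AT2G45880_at), BAM8 (AT5G45300_at) and BAM9 (AT5G18670_at), and all 9 had a value among the 21195 loci measured. BAM5 was singled out because of its values in these same arrays, so its values are given here as a description without a test. The other 8 members were tested with limma across all loci, and a gene is called at an adjusted p under 0.05 (Benjamini-Hochberg over all loci, two-sided).

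The series followed growth and arrest of the inflorescence in Arabidopsis with 14 one-colour Affymetrix arrays, whose deposited values were read as log2. Whole inflorescences gave 10 arrays. Arrested inflorescences of fertile plants had 2 arrays, fertile inflorescences still growing had 1, sterile inflorescences still growing had 1, and inflorescences at 6, 24 and 48 h after fruit removal had 2 at each time. Fertile plants were labelled ms1-1 co-segregants, sterile plants were homozygous for ms1-1, a male-sterile mutation, and the protocol names the accession Ler. Each inflorescence sample was a pool of 3 to 10 plants and took in flowers up to about floral stage 10. Shoot meristems cut out by laser from at least 20 plants gave 1 array for each of the arrested, fertile growing, sterile growing and 48 h states, and their RNA was amplified an additional time. Fruit removal is given as removal of all fruits in the series text and as removal of all but 3 to 4 in the protocol.

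The number of arrays limits the precision, and the labels do not state that replicates were grown separately, so p-values measure only the spread between these samples. Array medians lay between 7.27 and 7.45 in inflorescences and between 7.43 and 7.49 in meristems. Sample titles contain a code whose leading letter is r or g, and the labels do not explain it. Replicate 1 of the arrested inflorescences and both growing inflorescences carry r, whereas replicate 2 of the arrested inflorescences and all arrays after fruit removal carry g. The meristem marker STM was at 11.25 to 11.41 in the meristem arrays and at 8.23 to 9.40 in the inflorescence arrays. The stem cell marker CLV3 was at 8.47 to 9.26 in the meristem arrays and at 4.51 to 5.38 in the inflorescence arrays.

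BAM5 was under the lower quartile of the array in both arrested inflorescences and in all 4 meristem arrays, and it was high in every inflorescence after fruit removal. Its log2 level was 4.73 and 5.32 in the 2 arrested inflorescences, 6.25 in the fertile growing one and 10.33 in the sterile growing one. It was 11.30 and 10.99 at 6 h, 11.51 and 11.57 at 24 h, and 11.35 and 12.04 at 48 h after fruit removal. The sterile array and the 6 arrays after fruit removal thus held high levels and the arrested and fertile growing arrays held low levels. In order of the group values, arrested inflorescences (mean 5.025 ± 0.417, SD, n = 2) stood lowest, followed by the fertile growing and the sterile growing array, then 6 h (11.145 ± 0.219, n = 2), 24 h (11.54 ± 0.0424, n = 2) and 48 h (11.695 ± 0.488, n = 2). Of neighbours in that order, 24 h and 48 h overlapped. The order was set by these same values and the growing groups hold 1 array each, so the separation of the other neighbours is only a description.

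**Figure D1:**
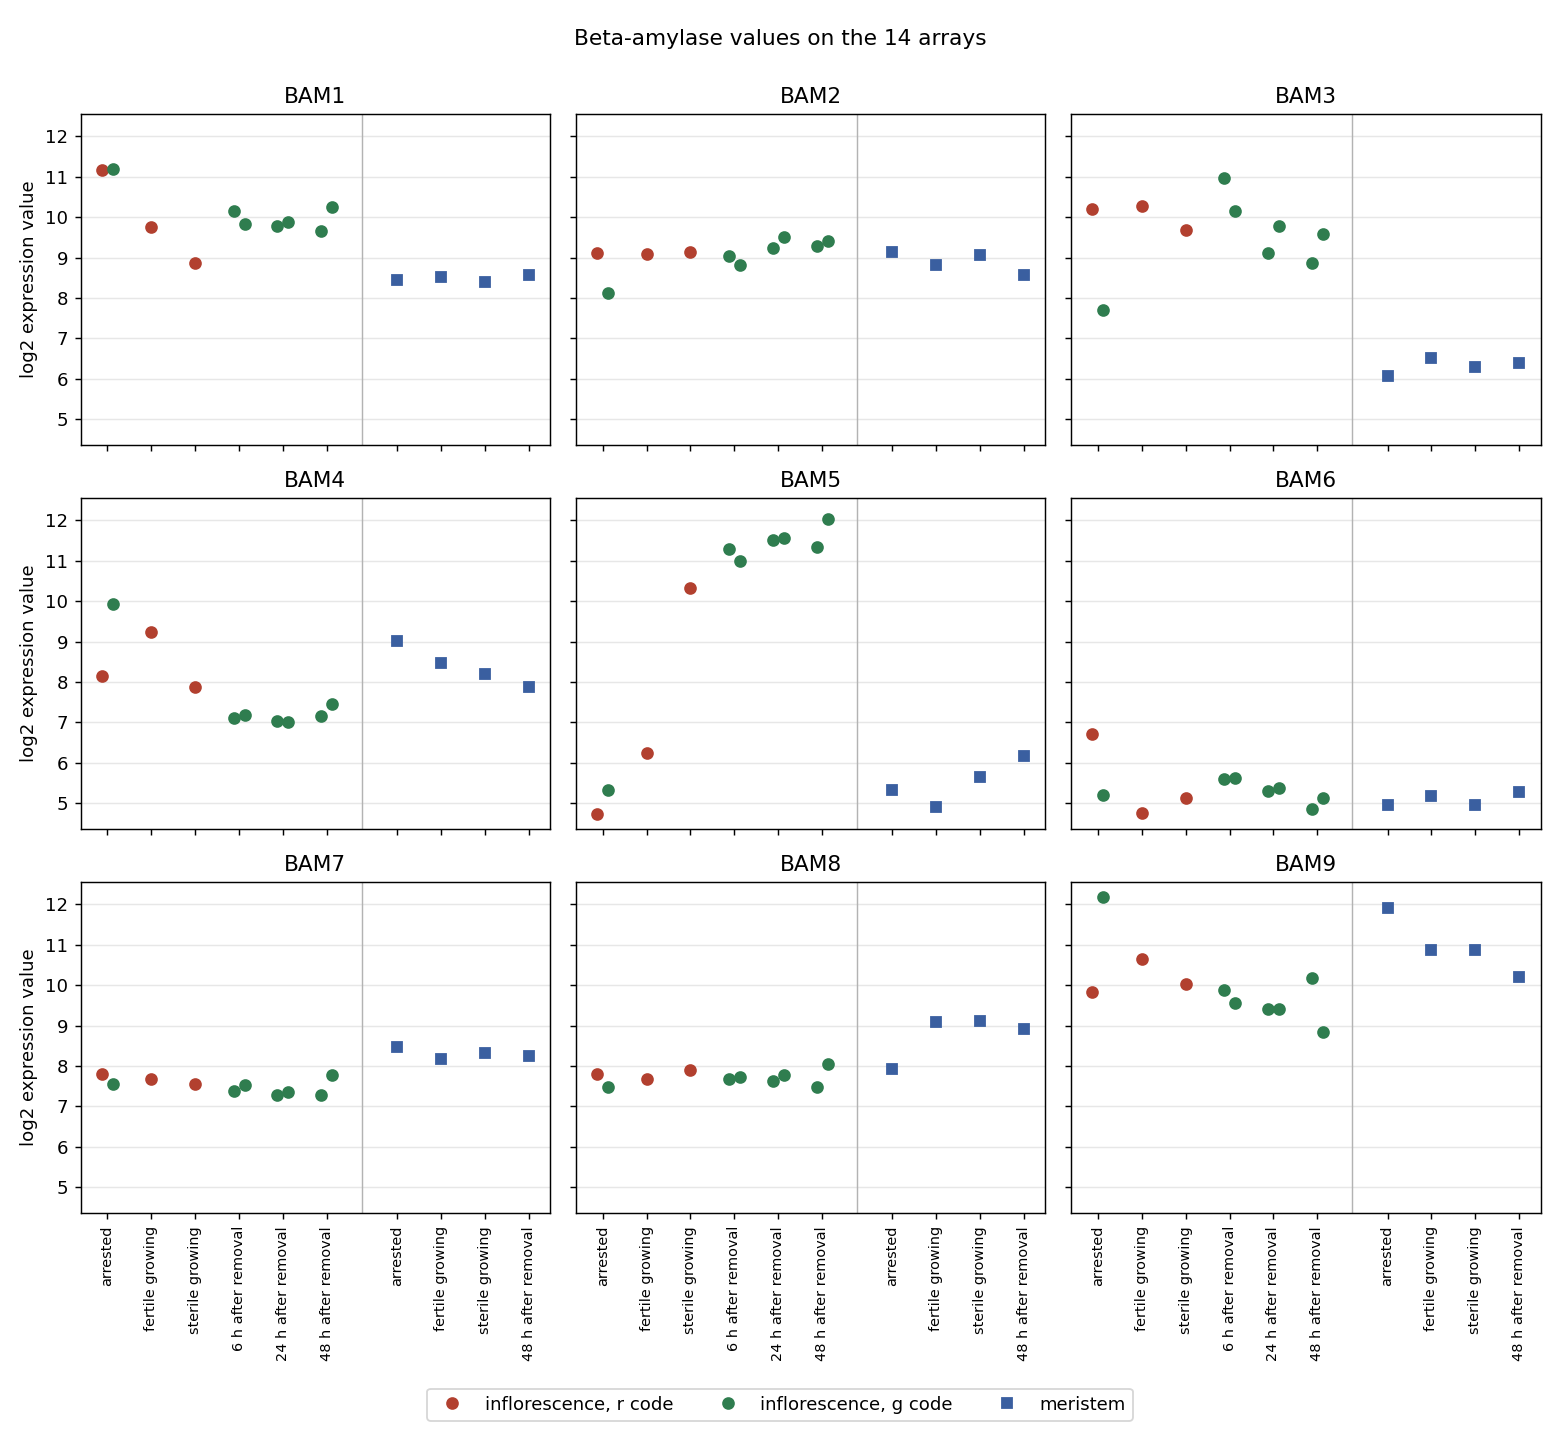
Log2 level (y axis) of each of the 9 beta-amylases in each of the 14 arrays, 1 panel per gene and 1 point per array, with arrays grouped by state on the x axis, circles for inflorescences (red for code r, green for code g) and squares for meristems. BAM5 sits at 10.33 or above in the sterile and fruit-removed inflorescences and at 6.25 or below in the other inflorescences, and it does not exceed 6.16 in meristems.

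As differences from arrested inflorescences, BAM5 was higher by 6.12 ± 0.289 (log2, SE) at 6 h, a 69.6-fold difference, by 6.515 ± 0.289 at 24 h, 91.5-fold, and by 6.67 ± 0.289 at 48 h, 102-fold. The sterile growing inflorescence stood 5.305 ± 0.354 above the arrested ones, 39.5-fold, and the fertile growing inflorescence 1.225 ± 0.354, 2.34-fold. Between the growing inflorescences BAM5 was 4.08 ± 0.409 higher in the sterile one, 16.9-fold. Ranked from the highest difference among all 21195 loci, BAM5 was first at 6 h, first at 24 h and number 3 at 48 h, and it was number 10 for sterile growing and number 1078.5 (a tied rank) for fertile growing inflorescences. These comparisons share the arrested arrays. No measure of detection was used here, and BAM5 lay under the lower quartile of both arrested arrays. With each arrested array set to its lower quartile instead (mean 5.8), BAM5 was at least 40.6-fold higher at 6 h, 53.4-fold at 24 h, 59.5-fold at 48 h, 23.1-fold in the sterile growing and 1.37-fold in the fertile growing inflorescence. Compared only with the arrested array of the same letter, BAM5 was 5.825 higher at 6 h, 6.22 at 24 h, 6.375 at 48 h, 5.60 in the sterile growing inflorescence and 1.52 in the fertile growing one.

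Markers of phloem, the tissue in which BAM5 is best known, were also read. The summed linear signal of 12 phloem markers was 10338 to 13618 in arrested inflorescences, 2363 in the sterile growing one, 3285 in the fertile growing one, 5993 to 7043 at 6 h, 4960 to 5181 at 24 h and 4012 to 4484 at 48 h. Of the inflorescence arrays, the arrested ones held the highest sums and the sterile growing one the lowest. The fertile growing one also lay under all 6 arrays after fruit removal. No phloem marker was at 0. Against arrested inflorescences limma called 6 of the 12 lower in sterile growing (10.8% of all loci), 5 in fertile growing (7.29%), 2 at 6 h (13.1%), 3 at 24 h (11.5%) and 4 at 48 h (13.9%), and none higher. The sums rest on a few bright genes such as the sucrose carriers SUC2 and SWEET11. The sieve element gene SEOR1 did not follow them, at 7.34 and 7.63 in arrested inflorescences and 7.86 and 8.30 at 48 h. The summed signal of 8 tapetum and pollen markers was 4299 to 5625 in arrested inflorescences, 4528 in the sterile growing one, 23336 in the fertile growing one, 1058 to 1284 at 6 h, 1474 to 1613 at 24 h and 7304 to 8836 at 48 h. The arrested sums came mostly from AGP6, a pollen gene, at 11.99 and 12.39 there and at 5.31 in the sterile growing inflorescence. The mean log2 level of the 8 markers was 5.602 and 5.892 in the arrested inflorescences, 8.199 in the sterile growing one and 10.39 in the fertile growing one. It was 5.289 and 5.328 at 6 h, 5.75 and 5.766 at 24 h, and 9.209 and 9.384 at 48 h. In bulk samples, fewer cells of a type and less RNA per cell cannot be told apart, and the part of tissue makeup in the BAM5 difference was not tested.

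With the groups as the only term and all arrays in the fit, no relative was called higher than in arrested inflorescences. Without replicate 1 of the arrested inflorescences BAM2 and BAM3 were called higher in all 5 comparisons, and without replicate 2 BAM4 was called higher in the fertile growing inflorescence. The sterile and the fertile growing group hold 1 array each, so their comparisons take the spread from the other groups. In the sterile growing against arrested inflorescences 1 of 8 relatives was called, against 26.4% of all loci (10.8% called lower), and the relatives' median difference was -0.4725 against 0.195 over all loci. In the fertile growing inflorescence 1 of 8 was called, against 13.3% of all loci (7.29% lower), with medians of 0.015 and -0.07. At 6 h 2 of 8 were called, against 21.8% of all loci (13.1% lower), with medians of -0.285 and -0.085. At 24 h it was 2 of 8 against 22% (11.5% lower), with medians of -0.495 and 0.075, and at 48 h 2 of 8 against 26.4% (13.9% lower), with medians of -0.56 and -0.015. Every one of these calls was a fall, and all were of BAM1 or BAM4. The 1 or 2 calls among 8 relatives were near the share of all loci called in each comparison. More relatives were called in all 5 comparisons without replicate 1 of the arrested inflorescences, and in the fertile and the sterile growing one without replicate 2. Such fits hold 1 arrested array, so these counts of relatives are not read against the shares. Without either 6 h array none was called at 6 h, and without either 24 h array 1 was called at 6 h. At 24 h the count was 1 without either 24 h array, and at 48 h it was 1 without any single array after fruit removal. Over all loci too, more were called in all 5 comparisons when 1 of the arrested arrays was left out. Fewer were called in them when 1 array after fruit removal was left out.

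**Figure D2:**
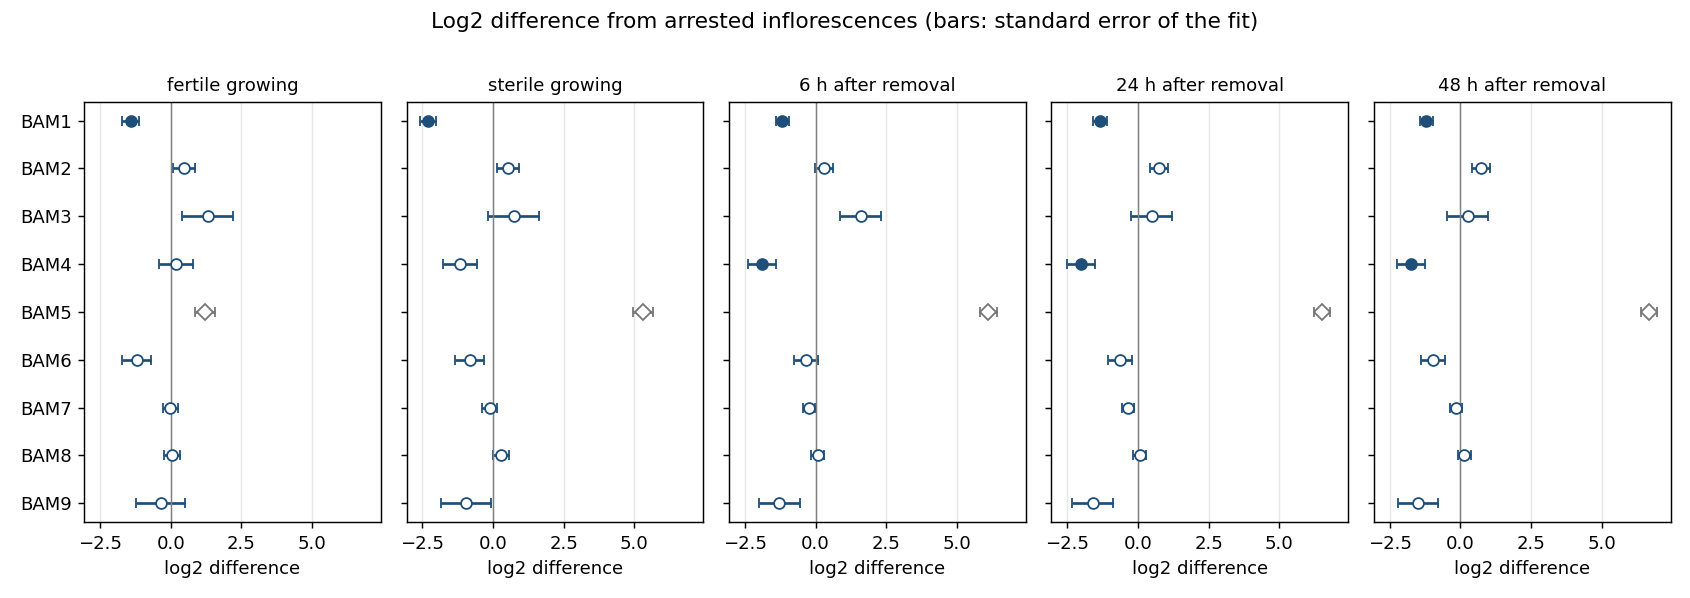
Log2 difference from arrested inflorescences (x axis) with its standard error for each beta-amylase (y axis), 1 panel per comparison. Filled points were called by limma, open points were not, and the grey diamond is BAM5, which was not tested. BAM5 lies at 5.305 or above in 4 of the 5 panels, and BAM1 lies below 0 in all of them.

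Clock genes also differed between these groups. CCA1, a clock gene of the morning, was at 10.50 and 10.01 in the arrested inflorescences, 5.75 in the sterile growing one, 5.93 in the fertile growing one, 9.12 and 8.68 at 6 h, 9.37 and 8.42 at 24 h, and 9.11 and 9.50 at 48 h. GI, a clock gene of the evening, was at 10.69 and 7.99 in the arrested inflorescences and at 5.97 and 5.39 at 24 h. Of 8 clock genes, limma called 1 higher and 3 lower than in arrested inflorescences in the sterile growing, 1 and 3 in the fertile growing, 0 and 3 at 6 h, 0 and 4 at 24 h, and 1 and 3 at 48 h. The shares of all loci called in these comparisons were 26.4%, 13.3%, 21.8%, 22% and 26.4%. The shares called lower were 10.8%, 7.29%, 13.1%, 11.5% and 13.9%. The part of sampling time in the differences of beta-amylases and starch genes was not tested.

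BAM1, a catalytically active plastid enzyme known from guard cells and from leaves under osmotic stress, was the member called in all 5 comparisons with arrested inflorescences, lower each time. BAM6, BAM7 and BAM9 also had lower means in all 5 but were not called. Its log2 level was 11.16 and 11.18 in the arrested inflorescences, 8.87 in the sterile growing one, 9.75 in the fertile growing one, 10.15 and 9.84 at 6 h, 9.78 and 9.87 at 24 h, and 9.66 and 10.26 at 48 h. The arrested arrays were the highest of the 10 and overlapped with no other group. BAM1 fell by 2.30 ± 0.284 in the sterile growing (limma, adjusted p = 0.00159) and by 1.42 ± 0.284 in the fertile growing inflorescence (adjusted p = 0.0161). It fell by 1.175 ± 0.232 at 6 h (adjusted p = 0.0119), by 1.345 ± 0.232 at 24 h (adjusted p = 0.00727) and by 1.21 ± 0.232 at 48 h (adjusted p = 0.00799). The 6 h call was lost without either of the 6 h arrays (adjusted p = 0.0574 and 0.102).

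BAM3, the main enzyme of night-time starch breakdown in leaves, differed more between the arrested replicates than between groups. It was at 10.21 and 7.71 in the arrested inflorescences, 9.69 in the sterile growing one, 10.27 in the fertile growing one, 10.96 and 10.15 at 6 h, 9.11 and 9.77 at 24 h, and 8.86 and 9.58 at 48 h. Replicate 2 of the arrested inflorescences was the lowest of the 10 arrays, while replicate 1 lay inside the 6 h range. The highest group mean was at 6 h, 1.595 ± 0.731 above arrested, and it was not called (limma, adjusted p = 0.166).

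BAM2, a plastid member of low activity, had a narrow range. It was at 9.12 and 8.12 in the arrested inflorescences, 9.14 and 9.10 in the sterile and fertile growing ones, 9.05 and 8.81 at 6 h, 9.23 and 9.51 at 24 h, and 9.28 and 9.42 at 48 h. Its difference from arrested inflorescences was 0.75 ± 0.314 at 24 h (limma, adjusted p = 0.129) and 0.73 ± 0.314 at 48 h (adjusted p = 0.13), and neither was called. BAM6, also a plastid member, was under the lower quartile of the array in 13 of the 14 arrays. It was at 6.72 and 5.21 in the arrested inflorescences and between 4.77 and 5.63 in the other inflorescences, with no call.

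BAM4 lacks catalytic activity, yet leaves need it for normal starch breakdown. Its log2 level was 8.15 and 9.94 in the arrested inflorescences, 7.88 in the sterile growing one, 9.23 in the fertile growing one, 7.12 and 7.19 at 6 h, 7.03 and 7.02 at 24 h, and 7.16 and 7.45 at 48 h. The 6 arrays after fruit removal were the lowest of the 10, and the arrested and fertile growing arrays were the highest. BAM4 fell by 1.89 ± 0.487 at 6 h (limma, adjusted p = 0.0301), by 2.02 ± 0.487 at 24 h (adjusted p = 0.0235) and by 1.74 ± 0.487 at 48 h (adjusted p = 0.0345). Each call was lost without either array of its own time point, with adjusted p between 0.0993 and 0.142. The 6 h call was also lost without either 24 h array (adjusted p = 0.0578), and the 48 h call without either 6 h array (adjusted p = 0.0559) or either 24 h array (adjusted p = 0.0635).

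BAM9, the other plastid member without catalytic activity, was at 9.82 and 12.19 in the arrested inflorescences, 10.04 in the sterile growing one and 10.65 in the fertile growing one. It was at 9.89 and 9.57 at 6 h, 9.40 and 9.40 at 24 h, and 10.17 and 8.84 at 48 h. Replicate 2 of the arrested inflorescences was the highest of the 10 arrays, and replicate 1 lay among the others. The differences from arrested inflorescences were -1.275 at 6 h, -1.605 at 24 h and -1.5 at 48 h, none of them called (limma, adjusted p = 0.256, 0.149 and 0.166).

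BAM7 and BAM8, the nuclear members with the DNA-binding domain, varied little in inflorescences. BAM7 lay between 7.28 and 7.81 over the 10 inflorescence arrays and BAM8 between 7.47 and 8.06. Their differences from arrested inflorescences ran from -0.36 to -0.01 for BAM7 and from 0.04 to 0.27 for BAM8, with no call.

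In the sterile against the fertile growing inflorescence none of the 8 relatives was called by limma, against 0.67% of all loci. An unadjusted p under 0.05 was reached by 1 of the 8 and by 3987 of the 21195 loci. That comparison has 1 array on each side and takes its spread from the other groups. Between 24 h and 6 h and between 48 h and 24 h limma called none of the 8 relatives, against 0% and 0.561% of all loci. None of the 8 passed an unadjusted p under 0.05, which 2329 and 1340 of the 21195 loci did. BAM5 was 0.395 ± 0.289 higher at 24 h than at 6 h and 0.155 ± 0.289 higher at 48 h than at 24 h. The latter difference was -0.08875 after quantile normalization.

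The arrested replicates differed widely in several members. Between replicate 2 and replicate 1 the log2 difference was -2.50 for BAM3, 2.37 for BAM9, 1.79 for BAM4 and -1.51 for BAM6. Thus 4 of the 9 members (44.4%) differed by more than 1.5 between these arrays, against 3.3% of all loci, whose median absolute difference was 0.34. The difference was -1 for BAM2, 0.59 for BAM5, -0.32 for BAM8, -0.26 for BAM7 and 0.02 for BAM1. Replicate 2 was also lower in 15 of 17 other starch breakdown genes and in 18 of 19 starch synthesis genes, where 44.9% of all loci were lower. The difference was -2.89 for the cytosolic phosphorylase PHS2, -2.46 for the debranching enzyme ISA3, -1.99 for the maltose-using transferase DPE2 and -1.48 for the glucan dikinase GWD1. Of 8 clock genes, 7 were lower in replicate 2, and GI had the largest difference of the 8, -2.7. These arrays differ in the letter of the title code, and the part of that code or of sampling time in the difference was not tested.

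**Figure D3:**
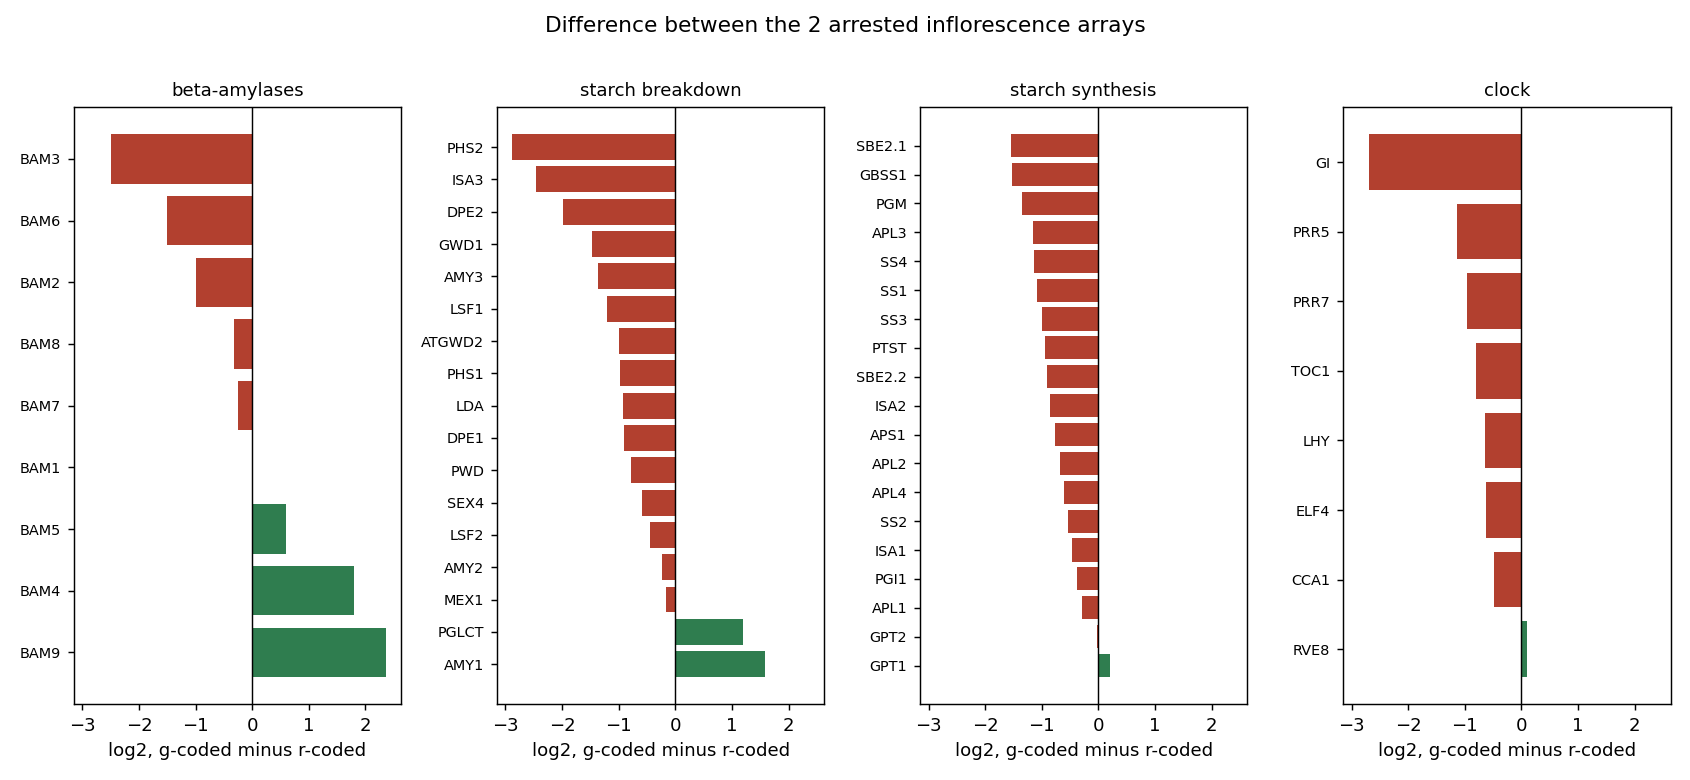
Log2 difference between replicate 2 (code g) and replicate 1 (code r) of the arrested inflorescences (x axis, bars from 0) for each beta-amylase and each gene of the starch breakdown, starch synthesis and clock lists (y axis). BAM3 at -2.50 and BAM9 at 2.37 lie at the ends of the family, and 33 of the 36 other starch genes lie below 0.

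With the letter of the code as a term of the fit, arrays after fruit removal are in effect compared with replicate 2 alone, and 5 of the 8 relatives were called at 6, 24 and 48 h. In that fit 5787, 5720 and 6555 of the 21195 loci were called at these times, against 4622, 4658 and 5596 without the letter. BAM1 and BAM4 were again lower. BAM2 was then higher by 0.81 at 6 h, 1.25 at 24 h and 1.23 at 48 h (limma, adjusted p = 0.0312, 0.00732 and 0.00627). BAM3 was higher by 2.845, 1.73 and 1.51 (adjusted p = 0.00605, 0.0334 and 0.0471), and BAM9 was lower, with differences of -2.46, -2.79 and -2.685 (adjusted p = 0.0126, 0.0083 and 0.00795). The same 5 genes were called at the 3 times without replicate 1 of the arrested inflorescences. The calls of BAM2, BAM3 and BAM9 therefore rest on 1 arrested array. With the letter in the fit, 5919 loci were called for the sterile growing and 3552 for the fertile growing inflorescence. Among the relatives, 2 and 3 were called. Beside BAM1 these were BAM6, with differences of -1.58 and -1.95 (adjusted p = 0.00398 and 0.00251), and in the fertile growing inflorescence BAM4, with a difference of 1.08 (adjusted p = 0.0207). BAM4 then differed by -1.35 between the sterile and fertile growing inflorescences (adjusted p = 0.0356).

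The rest of the starch pathway was read from 36 other genes, 17 of breakdown and 19 of synthesis. Against arrested inflorescences limma called 7 of the 36 in sterile growing and 5 in fertile growing inflorescences, and 6 at 6 h, 5 at 24 h and 5 at 48 h. Over all loci 26.4%, 13.3%, 21.8%, 22% and 26.4% were called in these comparisons, and the counts of starch genes lay near or under these shares. Of the breakdown genes, 2 rose and 2 fell in the sterile growing, 2 fell in the fertile growing, 1 rose at 6 h, 1 fell at 24 h and 1 fell at 48 h. Of the synthesis genes, 3 rose in the sterile growing, 2 rose and 1 fell in the fertile growing, 4 rose and 1 fell at 6 h, and 3 rose and 1 fell at each of 24 h and 48 h. Of the 21195 loci, 3314 rose and 2281 fell in the sterile growing, and 1276 rose and 1546 fell in the fertile growing. After fruit removal 1845 rose and 2777 fell at 6 h, 2220 and 2438 at 24 h, and 2658 and 2938 at 48 h. None of the 36 was called between the growing inflorescences, between 24 h and 6 h or between 48 h and 24 h. Over all loci the shares called there were 0.67%, 0% and 0.561%. An unadjusted p under 0.05 was reached by 4, 12 and 0 of the 36. It was reached by 3987, 2329 and 1340 of the 21195 loci. With 1 of the arrested arrays left out, more of the 36 were called in most comparisons with arrested inflorescences. Such fits hold 1 arrested array, so the reading against the shares is for the fit with all arrays only. The counts of starch genes also depended on the other arrays. Without either 6 h array they were 3 for sterile growing, 3 for fertile growing, 2 at 6 h and 3 at 24 h. The 24 h count was 1 without either 24 h array and 3 without either 48 h array, and the 48 h count was 1 without 48 h replicate 2. Between the growing inflorescences 1 was called without either arrested array or without either 48 h array. Over all loci too, more were called against arrested inflorescences in each comparison when 1 of the arrested arrays was left out. Fewer were called in each when 1 array after fruit removal was left out.

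**Figure D4:**
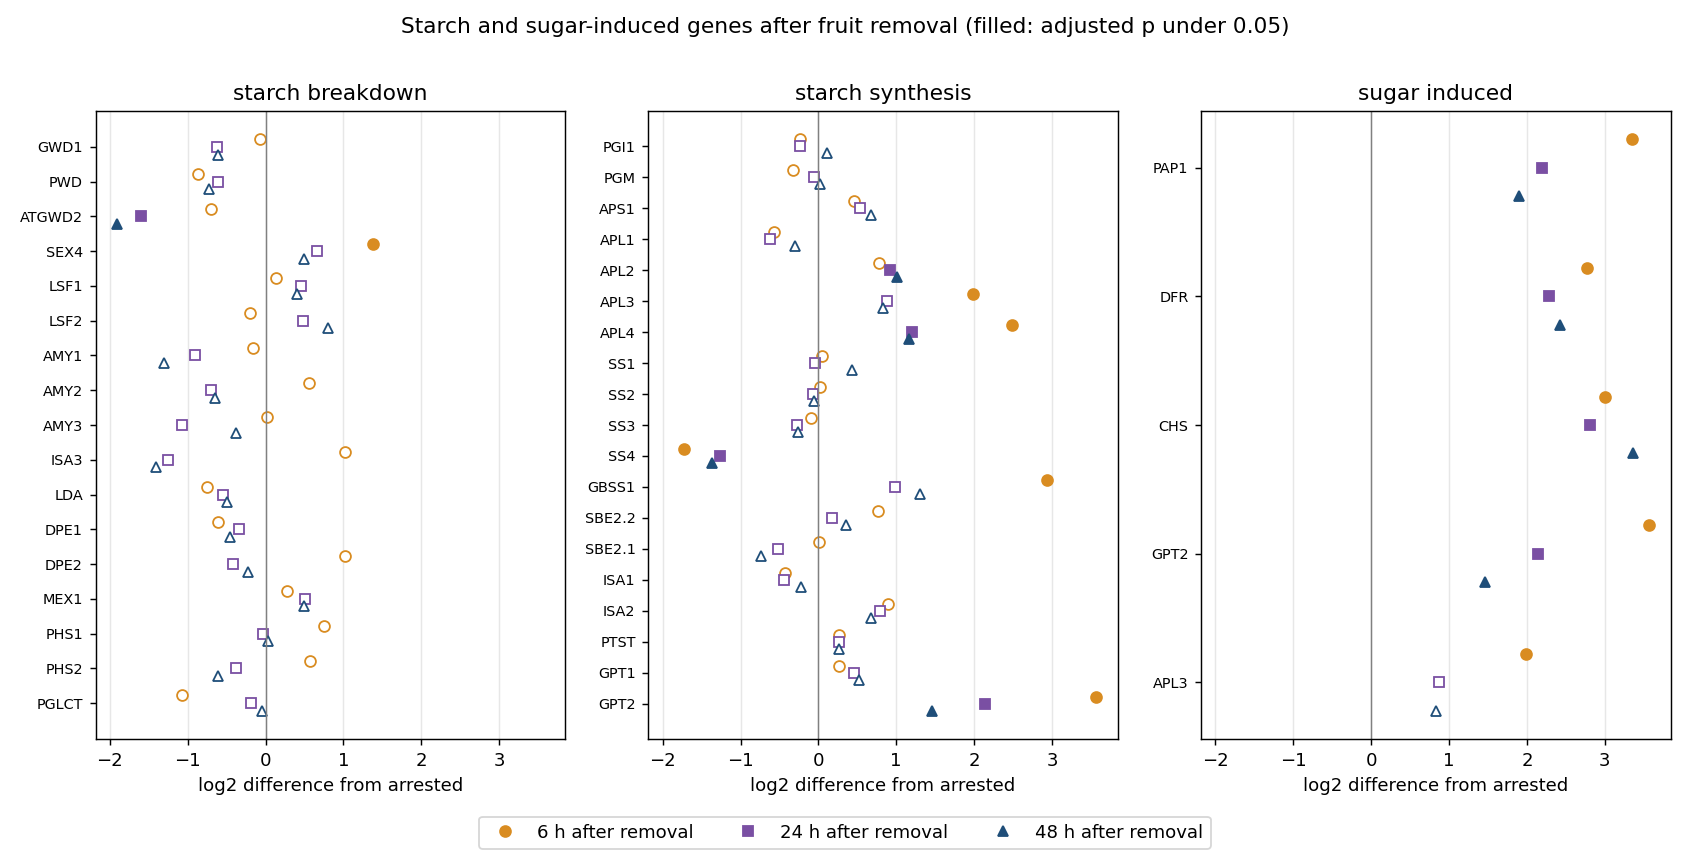
Log2 difference from arrested inflorescences (x axis) at 6 h (circles), 24 h (squares) and 48 h (triangles) after fruit removal for 17 other starch breakdown genes, 19 starch synthesis genes and 5 sugar-induced genes (y axis), with filled symbols for genes called by limma. GPT2 at 6 h lies farthest to the right at 3.57, and all 5 sugar-induced genes are filled at 6 h.

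At 6 h the genes of starch synthesis that rose were led by GPT2, a translocator that brings glucose 6-phosphate into plastids. GPT2 was at 8.71 and 8.68 in the arrested inflorescences, 12.31 and 12.22 at 6 h, 10.68 and 10.99 at 24 h, and 9.43 and 10.89 at 48 h. The arrays after fruit removal all lay above the arrested ones, with the 6 h arrays highest. GPT2 rose by 3.57 ± 0.411 at 6 h (limma, adjusted p = 0.00257), and it fell by 2.755 ± 0.503 in the fertile growing inflorescence (adjusted p = 0.011), where its level was 5.94. GBSS1, the granule-bound synthase that makes amylose, was at 10.03 and 8.50 in the arrested inflorescences and at 12.19 and 12.20 at 6 h. It rose by 2.93 ± 0.60 at 6 h (adjusted p = 0.0135). Large subunits of ADP-glucose pyrophosphorylase also rose at 6 h, APL4 by 2.485 (adjusted p = 0.00202) and APL3 by 1.985 (adjusted p = 0.00898), while SS4, a synthase of granule initiation, fell by 1.72 (adjusted p = 0.0148). The calls of GBSS1, APL3 and SS4 at 6 h were lost without either 6 h array (adjusted p between 0.0575 and 0.0859).

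Of the breakdown genes, SEX4, a phosphoglucan phosphatase, rose by 1.375 at 6 h (limma, adjusted p = 0.00911), a call lost without either 6 h array (adjusted p = 0.0647 and 0.0686). ATGWD2, a glucan water dikinase outside the plastid, was at 9.72 and 8.72 in the arrested inflorescences, 7.80 in the sterile growing and 6.70 in the fertile growing one, and between 7.18 and 7.86 at 24 h and 48 h. It fell by 1.42 in the sterile growing (adjusted p = 0.036) and by 2.52 in the fertile growing inflorescence (adjusted p = 0.00632), by 1.595 at 24 h (adjusted p = 0.0132) and by 1.91 at 48 h (adjusted p = 0.00503). The sterile call was lost without any 1 of the 6 arrays after fruit removal (adjusted p between 0.0517 and 0.0635) and the 24 h call without 24 h replicate 1 (adjusted p = 0.0836). The alpha-amylase AMY2 fell by 1.245 in the sterile growing (adjusted p = 0.0197) and fell by 1.685 in the fertile growing inflorescence (adjusted p = 0.00938).

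Genes that rise in sugar-fed leaves, as BAM5 does, were read from a list of 7, of which 5 had a value. GPT2 and APL3 are also on the starch synthesis list. The list was chosen with earlier results of these data known, so its calls are a description. The part of sugar in the BAM5 difference was not tested. All 5 were called higher at 6 h (limma, adjusted p between 0.00257 and 0.0218), as were 1845 of the 21195 loci. PAP1, a regulator of anthocyanin synthesis, rose by 3.35, and CHS and DFR, enzymes of that pathway, by 3.005 and 2.77. GPT2 rose by 3.57 and APL3 by 1.985. PAP1 was at 7.14 and 6.26 in the arrested inflorescences, 10.41 and 9.69 at 6 h, 9.21 and 8.59 at 24 h, and 8.29 and 8.90 at 48 h. Of the 5, the 4 other than APL3 were called higher at 24 h and at 48 h, as were 2220 and 2658 of the 21195 loci. The 48 h call of GPT2 was lost in 8 of the alternative fits, that with the letter of the title code among them. Those of DFR were lost in 5 at 24 h and 4 at 48 h, and the other calls at these times in 1 or 2. In the sterile growing inflorescence, where BAM5 was at 10.33, limma called none of the 5, against 26.4% of all loci. An unadjusted p under 0.05 was reached by 1 of the 5 and by 8275 of the 21195 loci. PAP1 was at 6.17 in that inflorescence, below both arrested arrays, and DFR was at 7.99, between them. GPT2 at 9.45, APL3 at 8.64 and CHS at 11.58 each lay above both arrested arrays. In the fertile growing inflorescence the 1 call was the fall of GPT2. Without either 6 h array 2 of 5 were called at 6 h, without either 24 h array 1 of 5 at 24 h, and without 48 h replicate 2 none at 48 h. The count at 48 h was 2 without replicate 2 of the arrested inflorescences or without either 24 h array.

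In meristems BAM5 stayed low in all 4 states. It was at 5.32 in arrested, 4.92 in fertile growing, 5.65 in sterile growing and 6.16 in 48 h meristems, so the 48 h value stood 0.84 above the arrested and 1.24 above the fertile growing value. With 1 array per state there is no replicate check and no test. BAM8 was at 7.93 in arrested meristems, 9.08 in fertile growing, 9.11 in sterile growing and 8.91 at 48 h, 1.15, 1.18 and 0.98 above arrested. BAM9 was at 11.91 in arrested, 10.87 in fertile growing, 10.86 in sterile growing and 10.20 in 48 h meristems, with differences of -1.04, -1.05 and -1.71 from arrested. BAM4 was at 9.01, 8.46, 8.21 and 7.88 in the same order. The arrested meristem held the highest value of BAM2, BAM4, BAM7 and BAM9 and the lowest of BAM3 and BAM8. For BAM1 and BAM6 it lay inside the range of the other states. Of the 8 relatives, 2 differed by 2-fold or more from arrested meristems in the fertile growing ones, against 10.6% of all loci, 2 in the sterile growing ones, against 13.2%, and 2 at 48 h, against 12.2%. None did between the sterile and fertile growing meristems or between 48 h and fertile growing ones, against 1.75% and 2.09% of all loci.

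Set against all inflorescence arrays, 3 of the 9 members had the 4 meristem arrays outside the range, against 39.4% of all loci. BAM1 at 8.40 to 8.56 and BAM3 at 6.06 to 6.52, under the lower quartile in 3 of the 4 arrays, were lower in all meristem arrays than in any inflorescence array, as were 10% of all loci, and BAM7 at 8.18 to 8.46 was higher, as were 29.4%. The tissue and the additional amplification of meristem RNA cannot be told apart.

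The profiles most like that of BAM5 over the 10 inflorescence arrays were ranked by Pearson's r among 3585 loci with a log2 range of at least 2. The leading loci were AGP18, an arabinogalactan protein (r = 0.982), UGT84A1, a glycosyltransferase (r = 0.982), CPN10, a chaperonin (r = 0.981), FAF2 (r = 0.977) and AT5G40150 (r = 0.976). They were followed by CB5LP (r = 0.974), AT1G55210 (r = 0.973), CSLA01, a cellulose synthase-like protein (r = 0.97), JAL23, a jacalin-type lectin (r = 0.968) and AT3G16330 (r = 0.966). AGP18 was at 6.34 and 6.50 in the arrested inflorescences, 7.05 in the fertile and 8.19 in the sterile growing one, and between 8.14 and 8.58 after fruit removal. These values describe arrays that fall into 7 with high and 3 with low BAM5, and within the 7 the r of these loci ran from 0.45 to 0.854. Over all 14 arrays 4 of the 10 stayed among the leading 10, with CSLA01 first (r = 0.976) and JAL23 at number 2 (r = 0.972). In all, 7 of the 10 stayed among the leading 100. AGP18 fell to number 427 (r = 0.615), CB5LP to 464 (r = 0.588) and UGT84A1 to 673 (r = 0.453). Within the family, r with BAM5 over the 10 arrays ran from -0.853 for BAM4 to 0.571 for BAM2, with -0.684 for BAM9, -0.623 for BAM1 and 0.174 for BAM3.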

How the data were processed

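The authors deposited values that were read as log2 because they ran from 0 to 14.13 with 2 decimals. The deposited scale is not stated, and the background correction, normalization and software are not given in the sources used here. No further normalization was applied. Of 21253 rows, 58 held Affymetrix controls and were dropped, which left 21195 tested loci with no filter on low values. Symbols came from the RefSeq table of TAIR10.1, which held 21097 of the loci.

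The 10 inflorescence arrays were fitted in limma 3.58.1 (R 4.3.3) with 1 mean for each of 6 groups, and 8 comparisons were each adjusted over all loci. The procedure was tested on simulated data. Values after ± are standard errors unless marked SD. Meristem differences are single values. Members not called are given with their values, and starch, sugar and marker genes were named from called genes with the lowest p. The members and gene lists were chosen with earlier results of these data known. Alternatives were quantile normalization, median centring, an intensity trend, a filter on the lowest 20% of loci, the letter of the title code as a term, and leaving out each array. Results for single starch and sugar-induced genes under these, and a lower bound for BAM5, were added after seeing the data.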

Additional observations from a re-analysis of the deposited data

Results flagged for a closer look

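Some members differed between arrested and other states in opposite directions in inflorescences and in meristems. These differences between tissues were not tested, since each meristem state had 1 array. For the fertile growing against the arrested state, BAM1 differed by -1.42 in inflorescences and 0.07 in meristems, BAM5 by 1.22 and -0.40, and BAM6 by -1.20 and 0.23. BAM2 differed by 0.48 and -0.33 and BAM4 by 0.185 and -0.55 there, with overlap between the inflorescence groups. BAM5 and BAM6 were under the lower quartile of every meristem array. For the sterile growing against the arrested state, BAM2 differed by 0.52 and -0.09. For the sterile against the fertile growing state, BAM6 differed by 0.37 and -0.24 and BAM7 by -0.11 and 0.13. At 48 h after fruit removal against the arrested state, BAM1 differed by -1.21 and 0.12, BAM2 by 0.73 and -0.58, and BAM6 by -0.965 and 0.31. All these meristem values but the -0.58 of BAM2 at 48 h and the -0.55 of BAM4 in fertile growing were at or under 0.40 in size. No group held the 4 or more samples needed to look for single samples that stand apart.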

How the results depend on the processing

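Median centring and leaving out the lowest 20% of loci moved no count of calls by more than 1.5 times and no BAM5 difference by more than the spread between replicates. With the arrested arrays at their lower quartile, a bound added after seeing the data, BAM5 stood 5.345 higher at 6 h, 5.74 at 24 h, 5.895 at 48 h, 4.53 in sterile growing and 0.45 in fertile growing. Quantile normalization turned the BAM7 difference between fertile growing and arrested to 0.0055 and the BAM5 difference between 48 h and 24 h to -0.08875, and the starch count between the growing inflorescences went from 0 to 1 under quantile normalization and under the intensity trend. Quantile normalization moved the median difference of all loci between sterile growing and arrested inflorescences from 0.195 to 0.0635. With the letter of the code as a term, relatives called were 3 for fertile growing, 2 for sterile growing, 1 between these, and 5 at each of 6, 24 and 48 h. The other starch genes called were then 8 for fertile growing, 1 between the growing inflorescences, 15 at 6 h, 10 at 24 h and 12 at 48 h. Over all loci too, more were called in each of these comparisons with that term. The same term turned the difference from arrested of BAM2 in fertile growing to -0.02, of BAM8 to -0.12 and of BAM9 to 0.83 in the same comparison, of BAM3 in sterile growing to -0.52, of BAM9 in sterile growing to 0.22, and of BAM6 to 0.41 at 6 h and 0.125 at 24 h. Leaving out 1 array gave 1 to 3 relatives called for fertile growing, 1 to 5 for sterile growing, 0 to 1 between these, 0 to 5 at 6 h, and 1 to 5 at 24 h and at 48 h, and the 5 always came without arrested replicate 1. For the other starch genes the ranges were 3 to 14, 3 to 21, 0 to 1, 2 to 15, 1 to 12 and 1 to 12 in that order, and for the sugar-induced genes 2 to 5 at 6 h, 1 to 5 at 24 h and 0 to 4 at 48 h. The BAM5 difference ran from 6.325 to 7.015 at 48 h and from -0.19 to 0.50 between 48 h and 24 h. Signs turned for BAM2 at -0.02 to 0.98 in fertile growing and -0.19 to 0.81 at 6 h, for BAM3 at -0.52 to 1.98 in sterile growing, -0.77 to 1.73 at 24 h and -0.99 to 1.51 at 48 h, and for BAM4 at -0.71 to 1.08 in fertile growing. They also turned for BAM6 at -1.10 to 0.41 at 6 h and -1.385 to 0.125 at 24 h, and for BAM9 at -2.15 to 0.22 in sterile and -1.54 to 0.83 in fertile growing. BAM7 ran from -0.25 to 0.01 in sterile growing, -0.14 to 0.12 in fertile growing and -0.40 to 0.09 at 48 h, and BAM8 from -0.12 to 0.20 in fertile growing, -0.08 to 0.24 at 6 h, -0.09 to 0.23 at 24 h and -0.15 to 0.43 at 48 h. The cause was not tested. No paired analysis was possible because the labels give the groups no shared replicate numbers.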
